A study of Homo sapiens with 2 samples.

Results

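Oxidative phosphorylation depends on subunits encoded by the mitochondrial and the nuclear genome, and the RNAs of both sets were compared between MDAMB468 and CAL51 cells, established human lines of triple-negative breast cancer. The members were all genes of the deposited count matrix whose symbol belongs to a subunit family of complexes I, III, IV and V, with pseudogenes left out. They came to 91 of 30796 genes, of which 13 lie in mitochondrial DNA and 78 in nuclear chromosomes. Another 64 pseudogenes and 7 antisense, divergent or readthrough genes had matching symbols and were not counted as members. UQCRFS1, which encodes the Rieske iron-sulfur protein of complex III, was outside the rule.

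The lines were MDAMB468 and CAL51, both labelled as breast and as triple negative, that is, without the oestrogen receptor, progesterone receptor and HER2. The labels name no treatment and no genetic change made by the study for either line. The libraries were made by Drop-seq, in which a droplet joins a cell with a bead whose oligo-dT primers carry a barcode for the cell and a unique molecular identifier (UMI) for each captured polyadenylated RNA. There was 1 library per line, so no test between the lines was possible and every interval given here is a 95% interval for counting error alone.

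The respiratory chain passes electrons from complex I or II through coenzyme Q, complex III and cytochrome c to oxygen at complex IV, and pumps protons out of the mitochondrial matrix. ATP synthase, complex V, lets the protons back in and makes ATP. All of these except complex II mix subunits made inside the mitochondrion with subunits made in the cytosol and imported, so that an assembled complex draws on both genomes.

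The 13 mitochondrial mRNAs are cut out of long transcripts of the circular genome and most of them are then polyadenylated, and for several of them the tail itself completes the stop codon. Their last 30 bases in the GRCh38 reference (GENCODE release 29) are printed in map order because in most of them a poly(A) tail, which an oligo-dT primer can catch, follows these bases. The exceptions include MT-ATP8 and MT-ND4L, whose ends lie inside a shared messenger, and MT-ND6, which is known to carry little or no tail. Messengers that run on past the stop codon, among them those of MT-CO1, MT-CO2 and MT-ND5, are exceptions too. Capitals mark the bases of the final stop codon that the genome itself holds.
MT-ND1: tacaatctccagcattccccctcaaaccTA
MT-ND2: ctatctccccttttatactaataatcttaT
MT-CO1: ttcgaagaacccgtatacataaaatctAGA
MT-CO2: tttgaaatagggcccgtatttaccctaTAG
MT-ATP8: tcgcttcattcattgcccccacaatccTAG
MT-ATP6: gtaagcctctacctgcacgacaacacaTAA
MT-CO3: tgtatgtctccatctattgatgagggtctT
MT-ND3: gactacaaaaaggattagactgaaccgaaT
MT-ND4L: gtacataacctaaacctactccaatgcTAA
MT-ND4: accccgacatcattaccgggttttcctctT
MT-ND5: ctcatcctaaccctactcctaatcacaTAA
MT-ND6: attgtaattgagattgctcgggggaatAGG
MT-CYB: taattgaaaacaaaatactcaaatgggccT
The genome holds all 3 bases of the last codon in 7 genes, 2 bases in MT-ND1 and 1 base in the other 5. MT-ND6 is the only one of the 13 on the minus strand (chrM:14149-14673). The annotated MT-ATP8 and MT-ATP6 share 46 bases and MT-ND4L and MT-ND4 share 7, and each of these pairs is known to be carried by 1 messenger, so the UMIs of the partners are not independent.

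MDAMB468 gave 306 barcodes with 5501900 UMIs and CAL51 gave 1346 barcodes with 16223444 UMIs, and the median depth was 10016.5 and 8635 UMIs per barcode. A further 31 CAL51 barcodes had the same sequence as an MDAMB468 barcode and were left out. Of the MDAMB468 barcodes, 64 were 1 base away from another barcode of that line with at least 5 times as many UMIs, against 7 in CAL51, so some of the barcodes may not be separate cells. Of 7 epithelial markers, EPCAM, KRT8 and KRT18 were abundant in both lines. KRT7 had 5243 UMIs in MDAMB468 and 0 in CAL51 (up to 0.185 CPM), KRT19 had 10640 and 496, CDH1 had 182 and 7, and CLDN4 had 522 and 34. Over the list, 5 were more than 1.5-fold higher in MDAMB468, 1 (KRT18) lower and 1 neither. By the 1.5-fold call described below, 23.8% of all genes with at least 20 UMIs were higher in MDAMB468 and 30.4% lower. ESR1 had 3 and 0 UMIs and PGR had 1 UMI in each line, and the blood, endothelial and fibroblast markers together had at most 16 UMIs per list and line. ERBB2, which encodes HER2, had 39 UMIs in MDAMB468 and 262 in CAL51.

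The mitochondrial mRNAs took a larger share of all UMIs in MDAMB468 than in CAL51. Together the 13 reached 36163 counts per 1000000 UMIs (CPM) in MDAMB468 and 19576 CPM in CAL51, from 198964 and 317589 UMIs. The ratio was 1.85 (1.84 to 1.86). All 13 were higher in MDAMB468, and 12 passed the limit used for a call, a 1.5-fold difference on the log2(CPM + 1) scale with a counting interval that leaves out a ratio of 1. For scale, 23.8% of the 15347 genes with at least 20 UMIs were called higher in MDAMB468 and 30.4% were called lower. Among the 3872 genes with at least 1000 UMIs, which is the range of all 13, 14.4% were called higher and 35.6% lower. The median log2 difference was 0.96 over the 13 mRNAs and -0.13 over all genes with at least 20 UMIs. A 2-fold limit kept 6 of the 13 (MT-CO2, MT-ND6, MT-CO3, MT-ATP8, MT-ND4L and MT-ATP6), where 15.8% of all genes passed it upward and 18.6% downward.

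**Figure D1:**
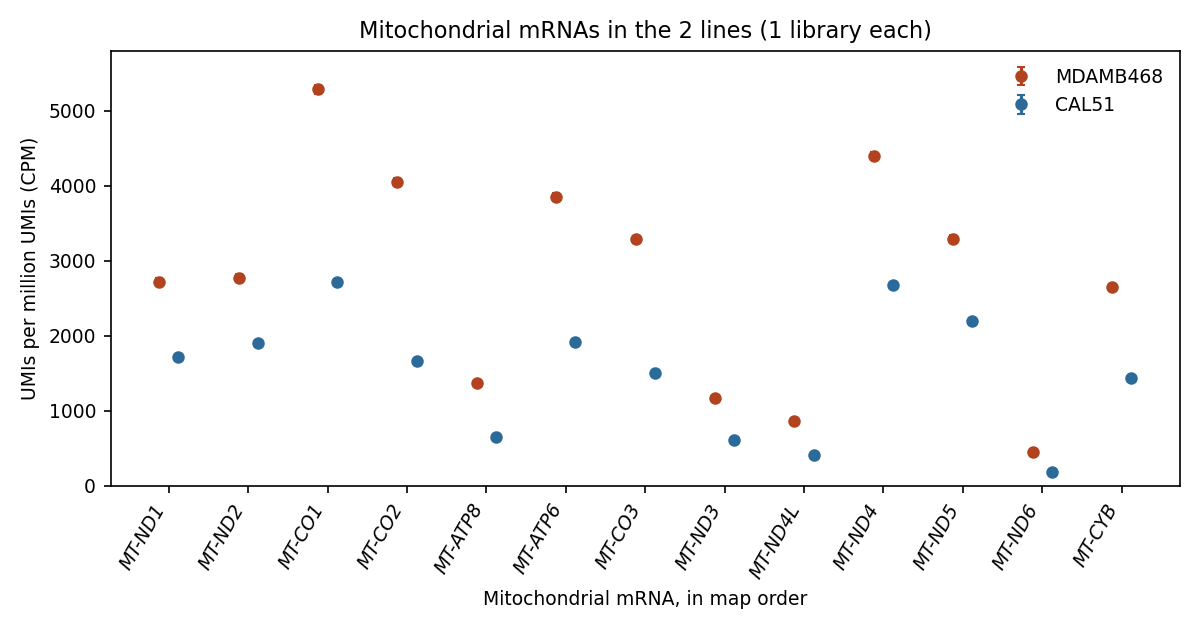
Level of each mitochondrial mRNA, in CPM on a linear axis, in the order of the genes on the map. Points are the summed library of each line and bars, mostly smaller than the points, are 95% Poisson intervals. Each MDAMB468 point lies above its CAL51 point, from 2777 against 1906 CPM for MT-ND2 to 4046 against 1663 CPM for MT-CO2.

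Complex I takes 7 of the 13 mRNAs, which encode its proton-pumping membrane core. MT-ND1 (chrM:3307-4262) was at 2725 CPM in MDAMB468 and 1718 CPM in CAL51, a ratio of 1.59 (1.55 to 1.62). MT-ND2 (chrM:4470-5511) was at 2777 and 1906 CPM, a ratio of 1.46 (1.43 to 1.49). MT-ND2 was therefore the single mitochondrial mRNA short of 1.5-fold. MT-ND5 (chrM:12337-14148), at 3293 and 2194 CPM, lay at the limit with a ratio of 1.501 (1.47 to 1.53), and its call was lost in 4 of the other settings tried, with log2 values of 0.45 to 0.58. The MT-ND1 call was lost under trimmed-mean scaling of the libraries (TMM), where 10 of the 13 were called. MT-ND4 (chrM:10760-12137) was at 4400 and 2673 CPM, a ratio of 1.65 (1.62 to 1.67). These long complex I messages made up the lower end of the range.

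The short complex I messages differed by more. MT-ND3 (chrM:10059-10404) was at 1172 and 609 CPM, a ratio of 1.93 (1.87 to 1.99). MT-ND4L (chrM:10470-10766) was at 862 and 410 CPM, a ratio of 2.10 (2.02 to 2.18), against 1.65 for MT-ND4 on the same messenger. MT-ND6 had the fewest UMIs of the 13, with 451 CPM in MDAMB468 and 188 CPM in CAL51, and its ratio of 2.40 (2.27 to 2.53) was the second highest. Summed over the 7 genes, complex I mRNA stood at 15679 and 9697 CPM, a ratio of 1.62 (1.60 to 1.63).

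The catalytic core of complex IV showed the widest gap of the 4 complexes. MT-CO1 (chrM:5904-7445), which encodes the subunit that holds the oxygen-reducing centre, was at 5284 and 2714 CPM, a ratio of 1.95 (1.92 to 1.98). MT-CO2 (chrM:7586-8269), whose product takes electrons from cytochrome c, was at 4046 and 1663 CPM, a ratio of 2.43 (2.39 to 2.48). No other mitochondrial mRNA differed by as much. MT-CO3 (chrM:9207-9990) was at 3288 and 1508 CPM, a ratio of 2.18 (2.14 to 2.22). The 3 genes together gave 12618 and 5884 CPM, a ratio of 2.14 (2.12 to 2.17), and the interval did not meet that of complex I.

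The remaining mitochondrial mRNAs lay between these values. MT-CYB (chrM:14747-15887), which encodes cytochrome b of complex III, was at 2651 and 1434 CPM, a ratio of 1.85 (1.81 to 1.89). MT-ATP6 (chrM:8527-9207), for the proton channel of ATP synthase, was at 3848 and 1913 CPM, a ratio of 2.01 (1.98 to 2.05). Its messenger partner MT-ATP8 (chrM:8366-8572) was at 1366 and 648 CPM, a ratio of 2.11 (2.05 to 2.17). The ATP synthase pair summed to 5214 and 2561 CPM, a ratio of 2.04 (2.01 to 2.07).

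The make-up of the mitochondrial pool shifted with these unequal differences. MT-CO2 took 11.2% of the UMIs on the 13 mRNAs in MDAMB468 and 8.49% in CAL51. MT-ND5 took 9.11% and 11.2%, and MT-ND2 took 7.68% and 9.73%. MT-CYB held 7.33% and 7.32% of the pool, so its ratio was that of the pool as a whole.

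The other RNAs of the mitochondrial genome did not share 1 ratio. The large ribosomal RNA MT-RNR2 was at 19556 CPM in MDAMB468 and 20601 CPM in CAL51, a ratio of 0.949 (0.943 to 0.956), and the small one, MT-RNR1, was at 1683 and 1034 CPM, a ratio of 1.63 (1.59 to 1.67). The log2 ratio of their sum was -0.027, but 0.074 with library totals that leave out mitochondrial and ribosomal protein genes. Their median share per barcode was 2.51% in MDAMB468 and 2.28% in CAL51, and it fell with depth in both lines. The direction for the rRNA sum was therefore not settled. The 22 tRNAs summed to 1382 and 216 CPM, a ratio of 6.41 (6.16 to 6.67). MT-TV alone held 4100 of their 7604 UMIs in MDAMB468 and 272 of 3499 in CAL51. Without it the other 21 summed to 637 and 199 CPM, a ratio of 3.20 (3.05 to 3.36). The ribosomal and transfer RNAs lack the long tails of the mRNAs, and how the primer caught them was not tested.

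Nuclear copies of mitochondrial sequence moved in the same direction as the mRNAs they resemble. The 76 annotated nuclear pseudogenes of the 13 mRNAs summed to 1284 CPM in MDAMB468 and 358 CPM in CAL51, a ratio of 3.59 (3.46 to 3.71). MTATP6P1 alone gave 688 and 182 CPM, and its transcript matches MT-ATP6 at 98.5% of 681 bases. The matching share was 98.4% between MT-ND2 and MTND2P28 and 98.7% between MT-CO1 and MTCO1P12. At such identity the counting can place a read on either copy, and how such reads were assigned is not given. With all 76 added, the mitochondrial total was 37447 and 19934 CPM, a ratio of 1.88 (1.87 to 1.89).

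The nuclear members summed to nearly the same level in both lines. Together they gave 28540 CPM in MDAMB468 and 27420 CPM in CAL51, a ratio of 1.04 (1.03 to 1.05). Under TMM the sign of this small difference turned, from 0.058 to -0.074 on the log2 scale, since that scaling lowers every log2 difference by 0.13. Of the 78 nuclear members, 74 had at least 20 UMIs and 72 had at least 1000. Of the 74, 9 were called higher in MDAMB468, 10 lower and 55 neither, beside 23.8% of all genes with at least 20 UMIs called higher and 30.4% lower (14.4% and 35.6% of those with at least 1000). By sign alone, 38 were above and 36 below a difference of 0. The median log2 difference was 0.02, beside -0.13 over all genes with at least 20 UMIs and -0.29 over those with at least 1000.

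Set against the nuclear subunits, mitochondrial mRNA was again higher in MDAMB468. There were 1.27 mitochondrial UMIs per nuclear subunit UMI in MDAMB468 and 0.714 in CAL51, a ratio of 1.77 (1.76 to 1.79). This quotient does not depend on how the libraries are scaled.

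**Figure D2:**
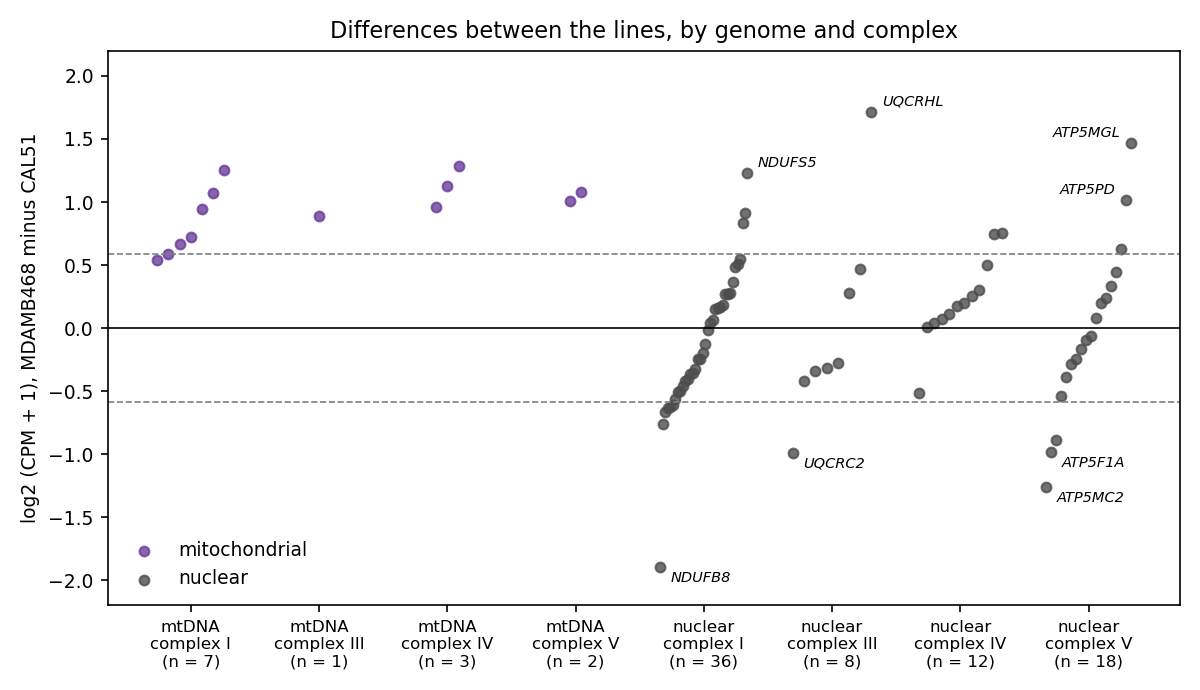
Log2 difference of CPM + 1, MDAMB468 minus CAL51, for the 13 mitochondrial and the 74 nuclear members with at least 20 UMIs, in columns by genome and complex and sorted within a column. Dashed lines mark 1.5-fold. The mitochondrial points lie between 0.54 and 1.28, whereas the nuclear points spread from -1.90 to 1.72 around 0.

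Complex I has 36 nuclear members here, and 3 were called higher in MDAMB468, 6 lower and 27 neither. Their sums were 9140 and 8738 CPM, a ratio of 1.05 (1.04 to 1.06) that lay below 1 under TMM. The median log2 difference was -0.16, and by sign alone 16 were higher and 20 lower in MDAMB468. NDUFB8 (chr10:100523740-100530000, minus strand), an accessory subunit of the membrane arm, had 653 UMIs or 119 CPM in MDAMB468 and 7220 UMIs or 445 CPM in CAL51. It was 3.75-fold (3.46 to 4.07) higher in CAL51, and no other member with at least 20 UMIs was lower in MDAMB468 by as much. NDUFC1, a small membrane-arm subunit (chr4:139266880-139302551, minus strand), was at 168 CPM in MDAMB468 and 285 CPM in CAL51, a ratio of 0.589 (0.549 to 0.633). NDUFA2, NDUFA11, NDUFB5 and NDUFA8, accessory subunits all, were also called lower, with log2 differences of -0.66, -0.64, -0.63 and -0.61. All 4 calls were lost when mitochondrial and ribosomal protein genes were left out of the library totals.

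NDUFS5 was the nuclear complex I member with the most UMIs and also the one furthest up. This accessory subunit (chr1:39026318-39034636, plus strand) was at 1353 CPM in MDAMB468 and 576 CPM in CAL51, a ratio of 2.35 (2.28 to 2.42). NDUFB7 (chr19:14566078-14572062, minus strand), an accessory subunit on the intermembrane side, was at 330 and 175 CPM, a ratio of 1.89 (1.78 to 2.003). NDUFB9, another membrane-arm accessory subunit, was at 448 and 251 CPM, a ratio of 1.79 (1.70 to 1.88). The 8 NDUFS genes, most of which encode core subunits of the matrix arm, summed to a ratio of 1.501 (1.47 to 1.53), but NDUFS5 was the only one of them called and their median log2 difference was 0.02. The core subunits NDUFS1, NDUFS3, NDUFS7, NDUFS8, NDUFV1 and NDUFV2 were not called in either direction, and their log2 differences ranged from -0.46 for NDUFS7 to 0.37 for NDUFV1.

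In complex III, 1 of 8 nuclear members was called higher, 1 lower and 6 neither. UQCRC2, the core protein 2 (chr16:21952660-21983660, plus strand), was at 62.0 CPM in MDAMB468 and 124 CPM in CAL51, a ratio of 0.499 (0.444 to 0.560), while its partner UQCRC1 was at 149 and 181 CPM. UQCRHL (chr1:15807169-15809348, minus strand), a copy of the hinge protein gene UQCRH, was at 71.8 and 21.1 CPM, a ratio of 3.40 (2.93 to 3.94). UQCRH itself, the nuclear complex III member with the most UMIs, was at 880 and 637 CPM, a ratio of 1.38 (1.33 to 1.43). The UQCRHL transcript matches that of UQCRH at 98.1% of 515 aligned bases, so the split of reads between them is uncertain. The nuclear sum of the complex was 2852 and 2946 CPM, a ratio of 0.968 (0.951 to 0.986), but lay above 1 when mitochondrial and ribosomal protein genes were left out of the totals.

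Complex IV had 2 of 12 measured nuclear members called higher and none called lower. COX4I1, the largest nuclear-encoded subunit of the enzyme, was at 1182 CPM in MDAMB468 and 706 CPM in CAL51, a ratio of 1.68 (1.62 to 1.73). COX7B, a small membrane subunit, was at 806 and 478 CPM, a ratio of 1.69 (1.63 to 1.75). Of the 12, 11 had a positive log2 difference, or 7 under TMM, and COX7C went the other way at 637 and 910 CPM. COX6C, with the most UMIs of its nuclear members, was at 1286 and 1078 CPM, a ratio of 1.19 (1.16 to 1.23). The sums were 8434 and 7242 CPM, a ratio of 1.16 (1.15 to 1.18), above 1 under each scaling. Complex IV therefore had the highest ratio of the 4 complexes in the nuclear as in the mitochondrial set.

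Several complex IV subunits come in isoforms that differ between tissues, and both lines carried the widespread forms. COX6A1 was at 627 CPM in MDAMB468 and 611 CPM in CAL51, and COX6B1 was at 539 and 436 CPM. COX7A2 was at 461 and 459 CPM and COX8A at 927 and 820 CPM. The ratios of these 4 lay between 1.004 and 1.24. The related COX7A2L, whose product joins complexes III and IV into supercomplexes, was at 173 and 122 CPM, a ratio of 1.42 (1.31 to 1.53).

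The restricted isoforms were close to absent. COX6B2, known from testis, had 3 UMIs in MDAMB468 and 1 in CAL51, and COX8C, also a testis form, had 4 and 0 (up to 0.185 CPM in CAL51). COX7A1, the heart and muscle form, had 0 and 10 UMIs, where a count of 0 allows up to 3 UMIs or 0.545 CPM in MDAMB468. NDUFA4L2, which hypoxia is known to induce, had 2 and 7 UMIs, whereas NDUFA4, the common form, was at 934 and 814 CPM. These 4 were the members under 20 UMIs. At this depth no difference between the lines was detectable for COX6B2, COX7A1 and NDUFA4L2. COX4I2, COX6A2 and COX7B2 had no entry under these symbols in the count matrix, so their levels could not be assessed.

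In ATP synthase, 3 of 18 nuclear members were called higher, 3 lower and 12 neither. Of the F1 head, ATP5F1A, the alpha subunit, was at 324 CPM in MDAMB468 and 642 CPM in CAL51, a ratio of 0.505 (0.480 to 0.531). ATP5F1B, the catalytic beta subunit (chr12:56638175-56646068, minus strand), was at 314 and 582 CPM, a ratio of 0.540 (0.513 to 0.568). The gamma subunit ATP5F1C, which turns inside the ring of alpha and beta subunits, went the other way at 595 and 384 CPM, a ratio of 1.55 (1.48 to 1.62), although this call was lost under TMM. ATP5F1D and ATP5F1E, the remaining subunits of the central stalk, had log2 differences of -0.06 and 0.20. The alpha and beta messages were thus lower by a similar factor while the stalk messages were not.

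The ring that turns with proton flow is built of subunit c, and the same mature protein is encoded by 3 genes. ATP5MC2 (chr12:53632726-53677408, minus strand) was at 281 CPM in MDAMB468 and 676 CPM in CAL51, a ratio of 0.416 (0.394 to 0.439). ATP5MC1 was at 205 and 298 CPM, with a log2 difference of -0.54 that did not reach the limit. ATP5MC3, the nuclear complex V member with the most UMIs, was at 874 and 1035 CPM, with a log2 difference of -0.24. All 3 were lower in MDAMB468 under each scaling, and their sum was 1361 and 2009 CPM, a ratio of 0.677 (0.660 to 0.694). ATP5MC2 supplied 281 of the 1361 CPM in MDAMB468 and 676 of the 2009 CPM in CAL51.

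In the peripheral stalk, ATP5PD, the d subunit (chr17:75038863-75046985, minus strand), was at 636 CPM in MDAMB468 and 314 CPM in CAL51, a ratio of 2.02 (1.94 to 2.11). Its neighbours in the stalk, ATP5PB, ATP5PF and ATP5PO, were not called and had log2 differences of 0.24, 0.33 and -0.10. ATP5MGL (chr22:42639803-42640601, minus strand), a copy of the subunit g gene, had 98 UMIs or 17.8 CPM in MDAMB468 and 94 UMIs or 5.79 CPM in CAL51, a ratio of 3.07 (2.29 to 4.12). ATP5MG itself was at 862 and 634 CPM, and the transcripts match at 93.1% of 476 aligned bases. The nuclear sum of the complex was 8114 and 8494 CPM, a ratio of 0.955 (0.945 to 0.966), against 2.04 for its mitochondrial pair, and the nuclear ratio lay slightly above 1 with the reduced library totals.

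**Figure D3:**
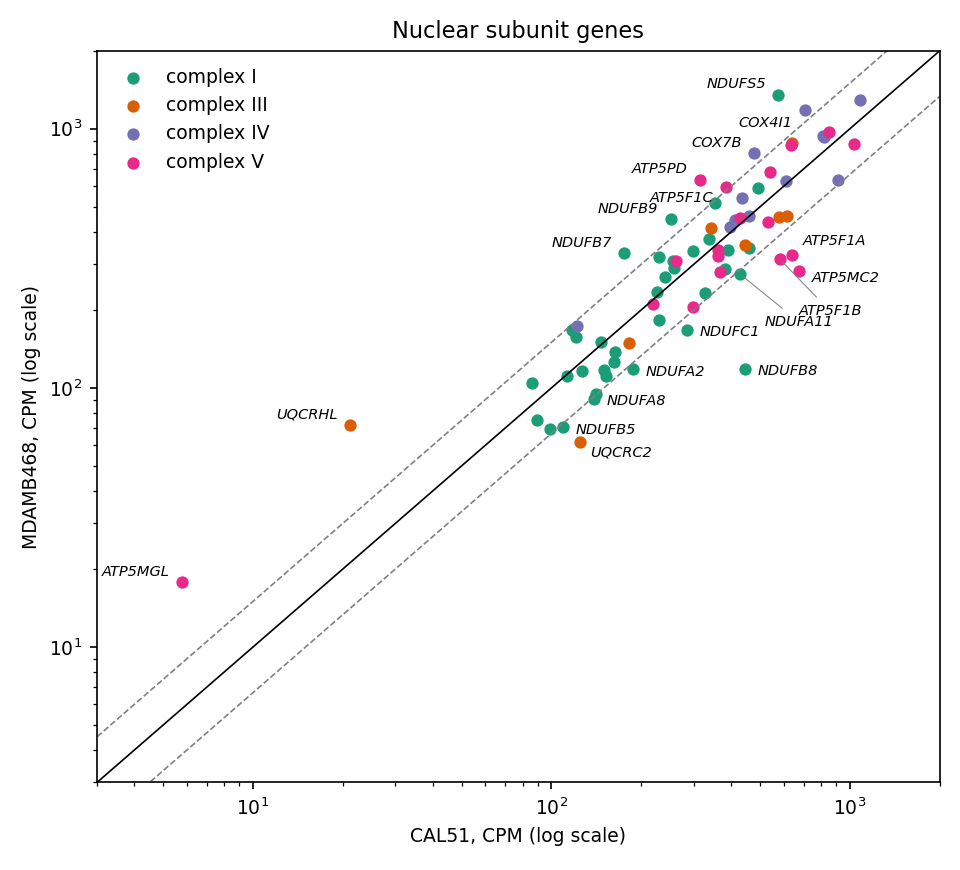
Level of the 74 nuclear members with at least 20 UMIs, in CPM, CAL51 on the horizontal and MDAMB468 on the vertical axis, both on log scales and coloured by complex. The solid line marks equal levels and the dashed lines 1.5-fold, and members called are named. NDUFB8 lies furthest below the line, at 119 against 445 CPM, and UQCRHL furthest above, at 71.8 against 21.1 CPM.

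Upstream sequence is shown for 3 members from both ends of the nuclear range. They were picked, after the matches were seen, from 7 such windows read, and include both windows with a match. The other 5 windows, of which NDUFB8 is shown, held none. The windows are the 250 bases before the RefSeq gene start (GRCh38.p14, coding strand, all on the minus strand), and capitals mark a match to a motif named in the next paragraph.
NDUFB8 (chr10:100529924-100530173): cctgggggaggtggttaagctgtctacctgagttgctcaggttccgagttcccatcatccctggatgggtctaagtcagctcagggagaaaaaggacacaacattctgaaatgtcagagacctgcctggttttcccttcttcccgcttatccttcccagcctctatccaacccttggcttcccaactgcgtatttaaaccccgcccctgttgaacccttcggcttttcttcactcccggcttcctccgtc
ATP5MC2 (chr12:53676084-53676333): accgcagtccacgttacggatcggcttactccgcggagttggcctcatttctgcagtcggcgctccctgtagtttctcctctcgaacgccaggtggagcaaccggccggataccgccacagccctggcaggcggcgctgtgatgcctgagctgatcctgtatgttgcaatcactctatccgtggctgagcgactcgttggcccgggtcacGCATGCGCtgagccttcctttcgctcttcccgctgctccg
ATP5PD (chr17:75046970-75047219): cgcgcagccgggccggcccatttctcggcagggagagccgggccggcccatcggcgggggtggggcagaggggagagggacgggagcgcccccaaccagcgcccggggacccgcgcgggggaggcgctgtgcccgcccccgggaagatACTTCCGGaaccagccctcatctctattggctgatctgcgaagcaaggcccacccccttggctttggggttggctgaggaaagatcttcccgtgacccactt
ATP5MC2 holds GCATGCGC, ATP5PD holds ACTTCCGG, the reverse complement of CCGGAAGT, and NDUFB8 holds none of the motifs searched.

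Promoters of nuclear respiratory genes are known for sites of nuclear respiratory factor 1 (NRF1), of ETS-family factors such as GABP, and of YY1. A RefSeq promoter, from 250 bases before to 50 after the gene start, was found for 62 of the 78 nuclear members. On either strand, GCATGCGC, a core of NRF1 sites, occurred in 11 of them (17.7%) and in 3.05% of all 35116 such promoters. CCGGAAGT, an ETS core, occurred in 9 (14.5%, against 4.14% of all). AAGATGG, a YY1 core, occurred in 15 (24.2%, against 5.84% of all). The 62 were 1 promoter per gene. The 35116 were neither reduced in that way nor limited to protein-coding genes, so the shares come from unlike sets. Matches of letters are not evidence of binding, and a window without a match says nothing about a factor.

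Per barcode, the higher mitochondrial share was spread over nearly all MDAMB468 barcodes. The 13 mRNAs took a median of 3.42% of a barcode's UMIs in MDAMB468 (quartiles 2.95% and 4.003%, range 1.61% to 6.54%) and 1.92% in CAL51 (quartiles 1.61% and 2.26%, range 0.0132% to 7.98%). Of the MDAMB468 barcodes, 305 of 306 lay above the CAL51 median, and 31 of 1346 CAL51 barcodes lay above the MDAMB468 median. With each barcode thinned to 2500 UMIs, which every barcode reached, the medians were 3.48% and 1.92%. Barcodes of 1 library are not replicates of a line, so these spreads describe cells and not the error of the difference.

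The nuclear members took a median of 2.79% in MDAMB468 and 2.73% in CAL51, and the distributions overlapped almost wholly. The median number of mitochondrial UMIs per nuclear subunit UMI was 1.25 (quartiles 1.03 and 1.51) and 0.698 (quartiles 0.564 and 0.866). The mitochondrial share changed little with depth. With the barcodes of a line split by total UMIs into 4 groups of equal number, the CAL51 medians lay between 1.89% and 1.99%. Those of MDAMB468 were 3.03% in the shallowest group, which held 54 of the 64 near-duplicate barcodes, and 3.41% to 3.53% in the others. Without the near-duplicate barcodes the MDAMB468 median was 3.51%.

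**Figure D4:**
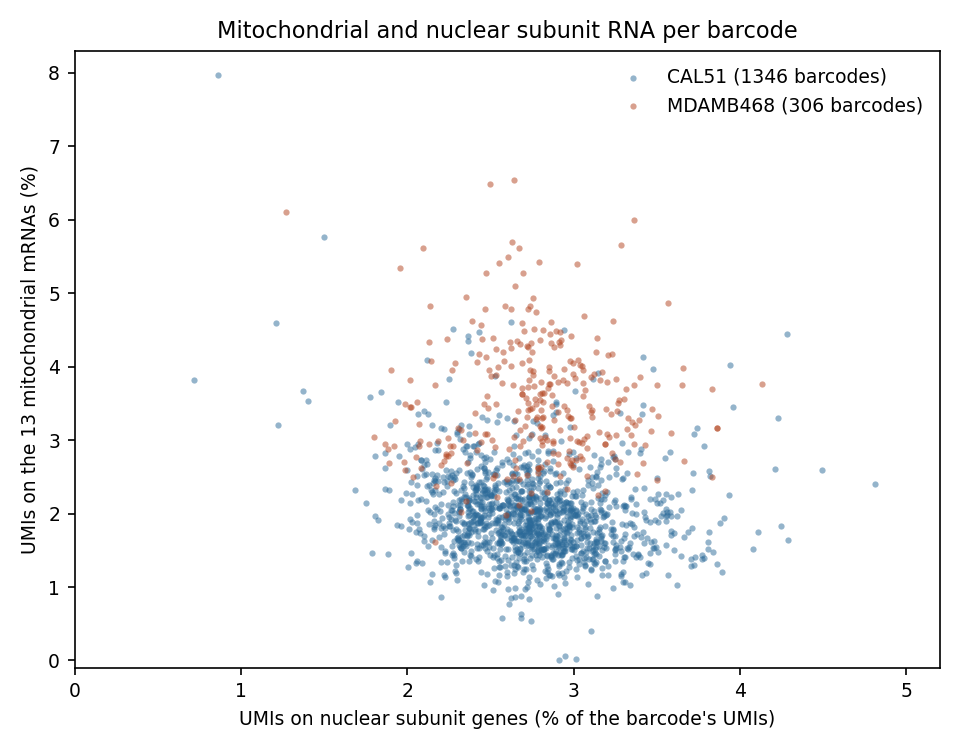
Share of a barcode's UMIs on the nuclear members (horizontal axis, %) and on the 13 mitochondrial mRNAs (vertical axis, %), 1 point per barcode. The lines overlap on the horizontal axis, with medians of 2.79% and 2.73%, and are displaced on the vertical axis, with medians of 3.42% and 1.92%. The 3 CAL51 points near 0 are the barcodes with 1, 1 and 3 mitochondrial mRNA UMIs.

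Within a line the shares of the 2 sets were at most weakly related. Over the thinned counts, the mitochondrial and the nuclear share had a Pearson r of -0.044 (Spearman 0.00053) over 306 MDAMB468 barcodes and -0.16 (Spearman -0.15) over 1346 CAL51 barcodes. Without the near-duplicate barcodes the MDAMB468 value was -0.19 (Spearman -0.16) over 242 barcodes. Pairs among the 12 mitochondrial mRNAs with a mean of at least 1 UMI had a median r of 0.19 in MDAMB468 and 0.20 in CAL51. Pairs among 20 nuclear members that met the same minimum had a median r of 0.035 and 0.025, and mixed pairs had -0.0091 and -0.019. The sets were not counted equally deeply. In MDAMB468 the highest mean was 13.7 thinned UMIs for MT-CO1 and 3.18 for the nuclear NDUFS5. The medians of the sets are therefore not on equal terms. The mitochondrial mRNA share went with the mitochondrial rRNA share, with r of 0.29 and 0.44, or 0.42 in MDAMB468 without the near-duplicate barcodes. All shares of a barcode come from the same library and the same total, which pulls them apart, and counts this sparse hold correlations low.

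In 3 CAL51 barcodes mitochondrial mRNA was nearly missing while nuclear subunit RNA was at its usual level. They were picked out after their values were seen. They held 7550, 3950 and 5462 UMIs on 2925, 1974 and 2397 genes, with 1, 1 and 3 UMIs on the 13 mRNAs, where the line's median share would give 145, 76 and 105. Their nuclear members took 2.91%, 3.01% and 2.95%. Their mitochondrial rRNA share was 1.22%, 3.06% and 0.439%, and none of them had a mitochondrial tRNA UMI. The next lowest CAL51 barcode was at 0.401%, with 30 UMIs, and the lowest MDAMB468 barcode at 1.61%, with 43 UMIs. Free RNA in the droplets was not measured, and its part in the mitochondrial counts was not tested. At the other extreme, a CAL51 barcode of 2545 UMIs had 7.98% mitochondrial and 0.864% nuclear member UMIs.

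Measures of RNA state also differed between the lines, in both directions, and their part in the mitochondrial difference was not tested. A list of 16 stress-response genes summed to 6868 CPM in MDAMB468 and 8681 CPM in CAL51, a log2 ratio of -0.34, but the median of their log2 differences had the other sign, 0.15. Of the 16, 6 were called higher in MDAMB468 (HSPA1A, HSPA1B, ATF3, FOSB, JUN and JUNB) and 3 lower (HSP90AA1, HSPE1 and DDIT3). These counts stand beside 23.8% called higher and 30.4% called lower among all genes with at least 20 UMIs. The chaperone HSPA1A was at 49.3 CPM in MDAMB468 and 0.308 CPM in CAL51, and the immediate-early gene JUN was at 197 and 22.2 CPM. The chaperone HSP90AA1, with the most UMIs of the list, was at 1720 and 2766 CPM. MALAT1 and NEAT1, which stay in the nucleus, summed to 6805 and 5137 CPM. Nearly all of this was MALAT1, at 6719 and 5029 CPM, while NEAT1 went the other way at 85.8 and 109 CPM. Neither gene was called. Over barcodes, the share of these nuclear RNAs had an r of 0.16 and 0.20 with the mitochondrial mRNA share in the respective lines. For the share of the stress list, r was -0.038 in MDAMB468 and -0.11 in CAL51.

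Genes that work beside the subunits were counted by the same rule, from lists chosen with earlier results of these data known. The counts stand beside 23.8% called higher and 30.4% called lower among all genes with at least 20 UMIs. None of the 4 complex II genes was called, and their sums were 512 and 531 CPM. CYCS, which encodes cytochrome c, was called higher at 607 CPM in MDAMB468 and 259 CPM in CAL51, a ratio of 2.34 (2.24 to 2.45), while CYC1, cytochrome c1 of complex III, was at 257 and 232 CPM. Of 17 genes listed for complex I assembly, 3 were called higher and 4 lower. The 4 include NDUFAB1, at 166 and 307 CPM, a complex I subunit gene whose symbol fell outside the member rule. Of 27 assembly genes of complexes III and IV, 9 were higher and 6 lower, with the copper carrier COX17 at 220 and 112 CPM. Of 6 genes for assembly and inhibition of ATP synthase, none was higher and 2 were lower, and ATPAF2, which helps assemble the alpha subunit, was at 6.36 and 27.7 CPM. ATPAF1, the beta-subunit counterpart, was at 40.2 and 54.6 CPM and was not called.

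The list of mitochondrial RNA synthesis and handling, of which 25 of 26 genes were found, had 3 called higher and 6 lower, with a median log2 difference of 0.00015. LRPPRC, which stabilizes mitochondrial mRNAs, was at 219 CPM in MDAMB468 and 132 CPM in CAL51, a ratio of 1.66 (1.54 to 1.78), while its partner SLIRP was at 338 and 380 CPM. SUPV3L1 and PNPT1, the helicase and the nuclease of the mitochondrial RNA degradosome, were called in opposite directions, at 50.5 and 21.0 CPM and at 118 and 252 CPM. POLRMT, the mitochondrial RNA polymerase, was at 7.45 and 14.9 CPM, called lower from only 41 and 241 UMIs. TFAM, which packs mitochondrial DNA and helps start its transcription, was at 177 and 127 CPM and was not called.

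Of 11 regulators of mitochondrial biogenesis, 2 were called higher and 3 lower. MYC was at 244 CPM in MDAMB468 and 26.6 CPM in CAL51, a ratio of 9.20 (8.25 to 10.3), and ESRRA, the estrogen-related receptor alpha, was at 55.8 and 12.2 CPM, a ratio of 4.57 (3.81 to 5.49). PPARGC1A, the coactivator PGC-1 alpha, had 0 UMIs in MDAMB468 and 124 UMIs or 7.64 CPM in CAL51, at least 14.0-fold lower in MDAMB468 when its 0 is taken as 3 UMIs. NRF1 was called lower from 21 and 138 UMIs, and CREB1 was the other. GABPA and YY1 were not called. Mitochondrial ribosomal proteins, which translate the 13 mRNAs, had 17 of 77 called higher and 16 lower, again beside 23.8% and 30.4% of all genes, with sums of 9530 and 8241 CPM. Of 13 tricarboxylic acid cycle genes, 4 were called higher and 3 lower.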

How the data were processed

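The deposited matrix holds UMI counts per gene and barcode for both lines, not normalized by the authors, and the line of a barcode was read from its prefix. STARsolo made the counts, per the submitters' processing notes. Its version, the build, the annotation, how reads matching several genes were treated and how barcodes were chosen: not given in the sources used here. Gene identifiers were turned into symbols with a names table (30730 of 30796 matched) and positions and gene types from GENCODE release 29 on GRCh38 (29416 matched).

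Counts were summed over the barcodes of a line and divided by all UMIs to give CPM. Exact Poisson intervals were given to sums and exact intervals conditional on the total to ratios, both at 95%. UMIs were not thinned except where stated. A gene was called when it passed 1.5-fold on log2(CPM + 1) with an interval off 1, among genes with at least 20 UMIs. No doublet caller was run and barcodes were not filtered further. The comparison recovered known folds on simulated data. Alternatives were TMM factors from edgeR 4.0.16 (R 4.3.3), library totals without mitochondrial and ribosomal protein genes, other barcode sets, thinning, other pseudocounts (0.1 and 10), filters and a 2-fold limit. Other steps used Python 3.11.15 with numpy 2.4.6 and scipy 1.17.1.

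The members and all lists were chosen with earlier results of these data known. Described in full were the 13 mitochondrial mRNAs, the 6 highest and 6 lowest nuclear members with at least 100 UMIs and 1 sign in all settings, the member with the most UMIs in each complex, and the isoform sets.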

Additional observations from a re-analysis of the deposited data

Results flagged for a closer look

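The 31 CAL51 barcodes left out because their sequence also occurs in MDAMB468 carried 4328 UMIs on the 13 mitochondrial mRNAs among 135240 UMIs, a share of 3.20%. That share drew attention because it is above the 1.96% of the other CAL51 barcodes and closer to the 3.62% of MDAMB468. Nuclear subunit genes took 3.09% of their UMIs, against 2.74% and 2.85%. The 31 MDAMB468 barcodes of the same sequences had a median of 56839 UMIs (range 40128 to 134213), against 10016.5 over all barcodes of that line. The 31 CAL51 barcodes had a median of 3638 UMIs. Which cells gave the UMIs of these CAL51 barcodes was not tested.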

How the results depend on the processing

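No alternative turned the direction of the mitochondrial sum, and the log2 ratio of mitochondrial to nuclear UMIs, 0.83, moved by less than its counting interval in the other barcode sets and under thinning. The log2 difference of the mitochondrial sum, 0.89, was 0.75 under TMM, 0.99 with totals that leave out mitochondrial and ribosomal protein genes, 0.90 in barcodes of at least 5000 UMIs and 0.84 after thinning. For the nuclear sum, 0.058, the same 4 settings gave -0.074, 0.16, 0.068 and 0.0077, and leaving out near-duplicate barcodes gave 0.069. The nuclear median, 0.021, became -0.11 under TMM, -0.066 after thinning and 0.12 with the reduced totals. TMM moved the median of all genes by -0.12. Nuclear members called lower, 10, numbered 16 under TMM, 6 with the reduced totals and 2 at 2-fold. Those called higher, 9, numbered 4 at 2-fold, and the mitochondrial members called higher, 12, numbered 6. Over all members and settings, 698 values kept their direction and side of the limit, 16 in 12 members newly passed it and 14 in 7 members no longer did. No paired analysis was possible because each line has 1 library. With 1 library a line, differences between lines, cultures and library preparation cannot be told apart, and counting error understates the error of every ratio. Genes under about 20 UMIs were too shallow for a comparison.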

Other observations

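Among the mitochondrial tRNAs, MT-TV, which lies between the ribosomal RNA genes MT-RNR1 and MT-RNR2, was at 745 CPM in MDAMB468 and 16.8 CPM in CAL51, from 4100 and 272 UMIs. Its ratio of 44.4 (39.3 to 50.4) stood far from those of the RNAs on either side, 1.63 for MT-RNR1 and 0.949 for MT-RNR2. All 22 tRNAs were higher in MDAMB468 and 18 of them passed 1.5-fold, with a median log2 difference of 1.33. Of all genes with at least 20 UMIs, 23.8% were called higher at 1.5-fold and 30.4% lower. MT-TY, MT-TS2 and MT-TE followed with ratios of 8.17, 6.20 and 4.32. MT-TP had 465 and 960 UMIs and a ratio of 1.43. These genes were singled out after their values were seen.

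Processed copies of nuclear members, 64 pseudogenes in all, summed to 157 CPM in MDAMB468 and 76.7 CPM in CAL51, a ratio of 2.04 (1.87 to 2.23). Of the 22 with at least 20 UMIs, 10 were called higher and 1 lower. Among all genes with at least 20 UMIs, 23.8% were called higher and 30.4% lower. The member copies UQCRHL and ATP5MGL, which had the highest ratios among nuclear members, thus sat beside pseudogenes that as a group were also higher in MDAMB468, while the genes they derive from had ratios of 1.38 and 1.36.

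Among mitochondrial ribosomal proteins, MRPS17 was at 327 CPM in MDAMB468 and 68.6 CPM in CAL51, and MRPS21 was at 409 and 103 CPM. MRPS24 had a higher ratio, from 9.45 and 1.66 CPM. Of the tricarboxylic acid cycle genes, SUCLA2 was at 39.3 and 135 CPM and FH at 326 and 185 CPM.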
